A study of Homo sapiens with 30 samples.

Results

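Posterior neural ectoderm that was moved into a midbrain medium was compared with the same ectoderm before the move, by open chromatin. The earlier list of ATAC-seq peaks (pNE, day 2) and the later list (pNE_M, day 4) were laid on a common set of regions, made by merging the peaks of all 10 lists of the study on chromosomes 1 to 22 wherever they overlapped by at least 1 bp. A list was called open at a region where it had a peak. Of the 476170 regions, 247601 were open in pNE or pNE_M, and these are the regions described. A region open in pNE_M and not in pNE was called gained, the reverse was called lost, and a region open in both was called kept.

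All cells were of the wild-type human embryonic stem cell line H1, and 3 biological replicates per group were assayed by OmniATAC-seq, an assay of accessible DNA that relies on cutting by the transposase Tn5. The pNE cells spent day 1 in a definitive ectoderm medium with A8301, Trametinib, C59 and LDN193189. On day 2 they were in a posterior medium with A8301, LDN193189, Thiazovivin, the retinoic acid receptor agonist TTNPB at 50 nM, FGF2 at 20 ng/mL and the tankyrase inhibitor XAV939 at 1 µM. The pNE_M cells had the same first 2 days, then the midbrain medium until day 4, whose composition is not given in the sources used here. Cells for day 2 endpoints were plated at 37500 per square cm and posterior cells kept longer at 150000, so medium, time in culture and plating density cannot be told apart. The other lists are undifferentiated cells (hPSC, day 0), definitive ectoderm (DE, day 1), anterior neural ectoderm (aNE, day 2, with C59 in place of TTNPB, FGF2 and XAV939), and the day 4 cells from aNE or pNE in telencephalon (T), midbrain (M) or hindbrain (H) medium.

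Each group is 1 list of peak positions without a score and without a value per replicate, so no difference below has a replicate error and none was tested. Read depth is unknown. The pNE list held 199638 peaks over 83.2 Mb and the pNE_M list 209967 peaks over 81.2 Mb, in a range over the 10 lists from 162041 peaks in aNE to 302355 in pNE_H. Their median peak widths were 287 bp and 267 bp, and the narrowest peak was 124 bp in pNE and 114 bp in pNE_M.

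The neural plate is divided along its axis by transcription factors and secreted signals. OTX2 marks the forebrain and midbrain, and GBX2 the hindbrain; at their border an organising centre secretes FGF8 and WNT1, and EN1, EN2, PAX2 and PAX5 define the territory around it. HOX genes, which lie in 4 clusters and answer to retinoic acid, FGF and WNT, mark the hindbrain and spinal cord and are not expressed in the midbrain or forebrain.

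The start sites of HOX genes and of a pluripotency gene were among the promoters that changed, and their sequences are shown because they are the annotated starts of genes in the groups that the results turn on. The 250 bases before each start site follow, 5′ to 3′ on the gene's strand, from RefSeq (GRCh38.p14). Capitals mark matches on either strand to the kinds of word found here: CAGCTG or CATCTG (E-box), GGAATG (TEAD), GGATTA (OTX), and ACAAAG or ACAATG (SOX). Words for homeodomain (TAATTA), TCF, POU, GATA, AP-1 and ZIC factors and the retinoic acid receptor half-site (AGGTCA) were also searched. They had no match in the sequences printed. A promoter is called gained or lost by peaks that overlap the window from 250 bases before to 50 after the start, not by merged region. By that measure HOXA7, HOXC4 and HOXD4 were gained, and NANOG and CYP26A1 were lost. Most HOX promoters did not change: of 26 listed, 3 were gained, 1 was lost, 13 were open in both lists and 9 in neither. The lost HOX promoter, of HOXA3, is not printed. The merged regions that hold the HOXD4 and CYP26A1 peaks were open in both lists and count as kept.
HOXA7, chr7:27156676-27156925, minus strand: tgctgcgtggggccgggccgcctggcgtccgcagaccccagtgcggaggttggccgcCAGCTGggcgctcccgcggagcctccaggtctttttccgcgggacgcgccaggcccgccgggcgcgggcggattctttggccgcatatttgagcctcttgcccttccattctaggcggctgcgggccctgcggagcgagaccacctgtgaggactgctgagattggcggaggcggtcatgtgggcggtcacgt
HOXC4, chr12:54016638-54016887, plus strand: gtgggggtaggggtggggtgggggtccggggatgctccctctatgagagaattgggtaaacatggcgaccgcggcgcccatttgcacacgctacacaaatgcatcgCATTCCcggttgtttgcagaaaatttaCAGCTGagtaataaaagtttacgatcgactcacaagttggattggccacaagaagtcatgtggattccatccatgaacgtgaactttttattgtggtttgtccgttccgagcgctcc
HOXD4, chr2:176151300-176151549, plus strand: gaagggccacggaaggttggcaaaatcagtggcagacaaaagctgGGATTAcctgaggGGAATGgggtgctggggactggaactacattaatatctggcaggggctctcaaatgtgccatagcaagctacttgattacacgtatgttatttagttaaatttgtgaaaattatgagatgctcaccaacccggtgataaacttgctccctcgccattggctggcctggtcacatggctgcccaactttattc
NANOG, chr12:7789152-7789401, plus strand: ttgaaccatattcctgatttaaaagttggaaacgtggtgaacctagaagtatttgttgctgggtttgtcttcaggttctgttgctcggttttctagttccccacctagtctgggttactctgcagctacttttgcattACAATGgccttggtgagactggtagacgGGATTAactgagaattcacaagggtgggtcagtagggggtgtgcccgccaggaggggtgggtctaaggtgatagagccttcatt
CYP26A1, chr10:93073225-93073474, plus strand: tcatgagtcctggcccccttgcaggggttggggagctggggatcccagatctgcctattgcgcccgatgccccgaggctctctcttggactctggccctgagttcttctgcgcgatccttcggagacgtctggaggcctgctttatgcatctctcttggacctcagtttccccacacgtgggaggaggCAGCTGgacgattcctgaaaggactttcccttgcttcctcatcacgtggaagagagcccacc

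Across all 21040 listed promoters of coding genes, the 250 bases before the start held an E-box word in 22.2%, a TEAD word in 10.4%, an OTX word in 4.90% and a SOX word in 17.2%. The words are short, and a match is not a binding site. At HOXA7 the gained peak was 129 bp wide (chr7:27156653-27156781), and the nearest pNE peak was 4003 bp from the start site. The same promoter had a peak in hPSC, DE, aNE and pNE_H. At HOXC4 the gained peak was 189 bp wide (chr12:54016717-54016905) and had no counterpart at the promoter in any of the other 9 lists. At HOXD4 it was 122 bp wide (chr2:176151482-176151603), the nearest pNE peak was 263 bp from the start site, and the promoter was also open in hPSC, DE, pNE_T and pNE_H.

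NANOG encodes a core pluripotency factor, and its proximal promoter is known for a joint OCT4 and SOX2 element. Its pNE peak was 299 bp wide (chr12:7789093-7789391) and held the SOX word printed in capitals. The promoter was open in hPSC, DE, aNE, pNE and aNE_T and closed in aNE_M, aNE_H, pNE_T, pNE_M and pNE_H, so among the lists made from pNE none had a peak there. CYP26A1 encodes an enzyme that degrades retinoic acid. Its pNE peak was 1068 bp wide (chr10:93073461-93074528) and reached over the start site, whereas the nearest pNE_M peak (chr10:93073916-93074035) lay 441 bp from it, inside the gene and within the span of the pNE peak. The peak was thus narrower and off the start site in pNE_M, in a region open in both lists. The CYP26A1 promoter was open in DE, aNE, pNE and aNE_T alone among the 10 lists.

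From pNE to pNE_M, 61176 regions were gained, 52481 were lost and 133944 were kept. Gained regions made up 24.7% and lost regions 21.2% of the regions open in either list. Of the regions open in pNE_M 31.4% were gained, and of those open in pNE 28.2% were lost. Kept regions divided by all regions open in either list (the Jaccard index) came to 0.541. Between pNE and the telencephalon list pNE_T the index was 0.521, between pNE and pNE_H 0.506, and between aNE and aNE_M 0.548. It was higher, at 0.670, between pNE and aNE_M, the midbrain-medium list from the other ectoderm, and 0.531 between aNE_M and pNE_M. These comparisons share lists, and list length differs between them.

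Gained and lost regions were narrow. The median pNE_M peak was 188 bp wide at gained regions and 347 bp at kept ones, and the median pNE peak was 189 bp at lost regions and 376 bp at kept ones. Peaks over 500 bp made up 6.64% of the gained and 32.7% of the kept regions in pNE_M, and 3.97% of the lost and 36.3% of the kept regions in pNE. The regions of each list were ordered by peak width and divided into 10 equal bins. In the narrowest bin of pNE_M (114 to 129 bp) 62.4% were gained, and in the widest 2.68%. The corresponding shares lost from pNE were 64.5% and 0.503%. Kept regions also narrowed more often than they widened: 59.4% were narrower in pNE_M and 40.2% were wider.

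**Figure D1:**
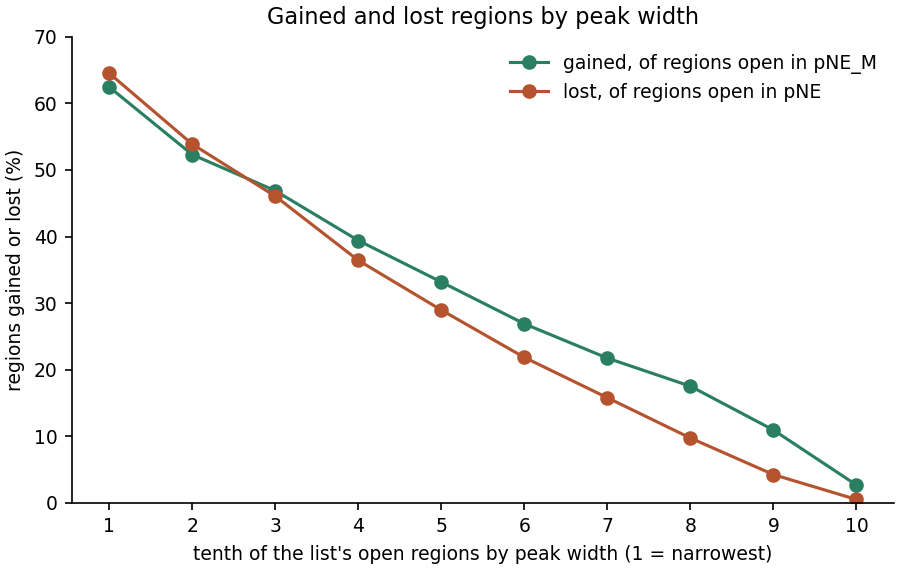
Share of regions gained (of those open in pNE_M) and lost (of those open in pNE), in percent, by bin of peak width, 10 equal bins of each list's regions from narrowest (1) to widest (10). Both lines descend, from 62.4% to 2.68% for gained and from 64.5% to 0.503% for lost regions.

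The changed regions lay near a gene end less often than the kept ones, and gained regions also lay less often inside coding genes. At most 1 kb from the nearest end of any gene in the annotation were 7.25% of gained, 8.63% of lost and 19.6% of kept regions. Inside a protein-coding gene were 45.7% of gained, 51.9% of lost and 51.2% of kept regions. More than 50 kb from any protein-coding gene were 34.5% of gained, 25.7% of lost and 23.8% of kept regions. By chromosome, the gained share ran from 13.5% on chromosome 19 and 17.1% on chromosome 22 to 29.3% on chromosome 13 and 30.1% on chromosome 4. The lost share varied less, from 17.9% on chromosome 19 to 23.3% on chromosomes 21 and 22.

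Gained regions had mostly not been open earlier, and lost regions mostly had. Of the gained regions 13.5% were open in hPSC, 17.2% in DE and 8.34% in aNE, against 44.3%, 54.7% and 39.8% of the lost regions. The kept regions were open in those lists in 76.2%, 82.5% and 78.3% of cases. Over all regions of the study the shares were 40.5%, 46.9% and 32.0%. Neither hPSC, DE nor aNE had a peak at 46463 gained regions (75.9%). Among the lost regions 32382 (61.7%) were open in hPSC or DE, which precede pNE, against 86.3% of the kept regions.

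Among day 4 lists, gained regions were shared most with the hindbrain-medium list from the same ectoderm. They were open in pNE_H in 57.7% of cases, in pNE_T in 30.1%, in aNE_M in 21.0%, in aNE_H in 19.2% and in aNE_T in 15.7%. Over all regions of the study pNE_H was open at 61.0% and pNE_T at 41.3%, so the longest list also had the highest share here. Both pNE_T and pNE_H were open at 15659 gained regions (25.6%), pNE_H without pNE_T at 19656 (32.1%), pNE_T without pNE_H at 2755 (4.50%), and neither at 23106 (37.8%). The midbrain-medium list from the anterior ectoderm was open at 12865 gained regions, of which 2023 were open in neither pNE_T nor pNE_H. Only 510 gained regions were open in pNE_M and aNE_M and in none of the other 8 lists.

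No other list was open at 17167 gained regions (28.1%), whose median width was 166 bp. Of the lost regions 3972 (7.57%) were open in pNE alone. At least 1 day 4 list from aNE was open at 39998 lost regions (76.2%, against 96.6% of kept regions). All 8 other lists were open at 3336 lost regions (6.36%). In contrast, 374 gained regions (0.611%) were open in all of the other 8 lists, that is everywhere but in pNE.

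**Figure D2:**
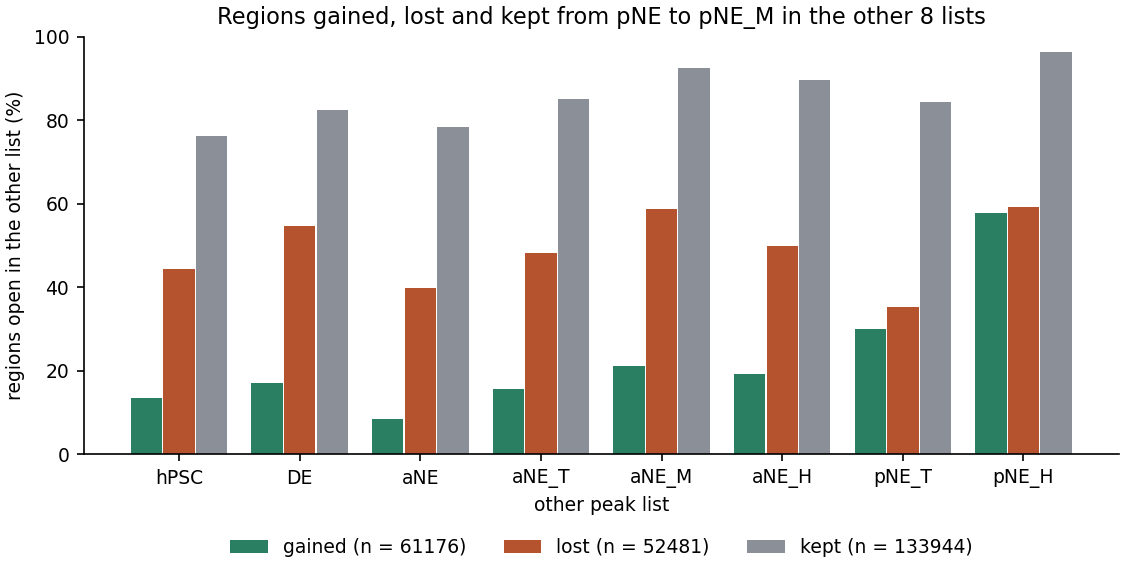
Share of gained, lost and kept regions, in percent, that were open in each of the other 8 peak lists, with bars starting at 0. Lost bars stand above gained bars in every list, by the least in pNE_H (57.7% gained, 59.1% lost) and pNE_T (30.1% and 35.2%).

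The comparison was repeated at equal list size, since pNE_M is the longer list and the files give no score. With the widest 199638 peaks of each, 55040 regions were gained, 55546 lost and 130879 kept, and the index was 0.542. The pNE list holds 199638 peaks in all, so only pNE_M peaks were dropped. By construction the gained regions of this comparison are all among the 61176 gained as deposited, and all 52481 lost regions are lost again. With the widest 162041 peaks of every list, 45276 were gained, 45708 lost and 107385 kept. Of these 45276 gained regions 82.1% were gained as deposited, which is 60.8% of the deposited gained regions. The excess of gained over lost regions thus did not hold at equal size, whereas the index did, at 0.541. At this size the share of gained regions open in pNE_H was 39.2%, against 30.0% in pNE_T and 19.3% in aNE_M, and of lost regions 34.9% were open in pNE_H, 34.8% in pNE_T and 55.9% in aNE_M.

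Each region was given to 1 protein-coding gene, the gene that holds its midpoint or otherwise the gene with the nearest end, and 17470 of 19122 genes received a region. More gained than lost regions were counted at 5803 genes (33.2%), and more lost than gained at 5794 (33.2%). At equal size by width, where only pNE_M peaks were dropped, the numbers were 4935 and 6684. The genes with most gained regions were mostly long, up to 2299 kb at PTPRD. TENM3, a teneurin involved in the matching of axons and targets, had 213 regions open in pNE and 265 in pNE_M, with 116 gained and 64 lost. GPC5, a glypican (a heparan sulfate proteoglycan of the cell surface), had 151 and 219, with 101 gained and 33 lost. PTPRD, a receptor tyrosine phosphatase of synapses, had 163 and 213, with 96 gained and 46 lost.

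PCDH9, a protocadherin, had the largest excess as deposited, with 95 gained and 22 lost regions, and open regions went from 107 to 180. At equal size by width PCDH9 and LINGO2 had the same excess, 59. Within 50 kb of the gene PTPRD (37), ZNF385D (30), LINGO2 (28) and GPC5 (26) stood above PCDH9 (19). LINGO2, a transmembrane protein with leucine-rich repeats, had 93 gained and 27 lost, and 52.8% of its regions were gained. PIK3C3, a lipid kinase of autophagy, had 89 gained and 29 lost regions. It is 133 kb long, and when counting stopped 50 kb outside the gene it had 8 gained and 1 lost. CSMD3, a transmembrane protein with CUB and sushi domains, had 84 gained and 24 lost, ADGRL2, a latrophilin, 74 and 56, TENM2 74 and 51, and BRINP3 73 and 21. Together these 10 genes held 895 gained regions, 1.46% of all gained regions. Next by excess came the protocadherin PCDH18 (64 gained, 15 lost) and ZNF385D (70 gained, 23 lost).

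TENM3, PTPRD, ADGRL2 and TENM2 were also among the 10 genes with most lost regions. At the head of that order, AUTS2 had 75 lost and 64 gained regions, RBFOX1, a neuronal splicing factor, 68 and 57, and CTNNA2, an alpha-catenin of neurons, 56 and 63. The excess of lost regions was largest at TRAPPC9 (43 lost, 18 gained), ROR1, a receptor for WNT5A (38 and 14), ARID1B, a chromatin remodeller subunit (45 and 22), PTPRT (39 and 16) and SORCS2 (37 and 15). BRD1, SDK1, TBC1D22A, MEGF11 and MGMT followed, with 26 to 49 lost and 6 to 28 gained regions each. Among the 3535 genes with at least 20 regions the median gene gained 25.6% of them. TSHZ1, a zinc-finger transcription factor, had the highest share, with 18 gained, 0 lost and 8 kept regions (69.2%), followed by SLC18A1 with 13 gained of 20, CD28 with 13 of 21, and ARL6IP6 and POLR1F with 14 of 23 each. At the other end CROCC, FBXW11, FGF3, H2BC13 and MATN2 gained 0; FBXW11 lost 12 of 26. FGF3 lost 4 and kept 17.

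Among 14 gene lists of neural patterning, signalling and other cell types, the HOX genes had the highest gained share and the midbrain genes the lowest, as deposited. The HOX list gained 37.4% and lost 12.8% of its 219 regions. The midbrain and boundary list gained 16.4% and lost 21.3% of 408. Its lost share was close to the 21.2% of all genes, and its gained share was below the 24.7% of all genes. The forebrain and eye field list was alike, with 17.0% gained and 21.5% lost of 317 regions. Every other list gained between 24.9% and 28.9% and lost between 13.7% and 21.6%. At equal size by width only pNE_M peaks were dropped, so gained minus lost could stay or fall but not rise. It changed by more than 1.5 times in 11 of the 14 lists, all with an excess of gained regions as deposited. It went from 27 to 16 at retinoic acid genes, 23 to 11 at dorsoventral, 51 to 29 at neural crest, 10 to 3 at surface ectoderm, 15 to 1 at mesendoderm, 11 to 7 at pluripotency and 30 to 18 at proneural and neuron genes. HOX genes went from 54 to 50, midbrain genes from -20 to -26 and forebrain genes from -14 to -19.

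**Figure D3:**
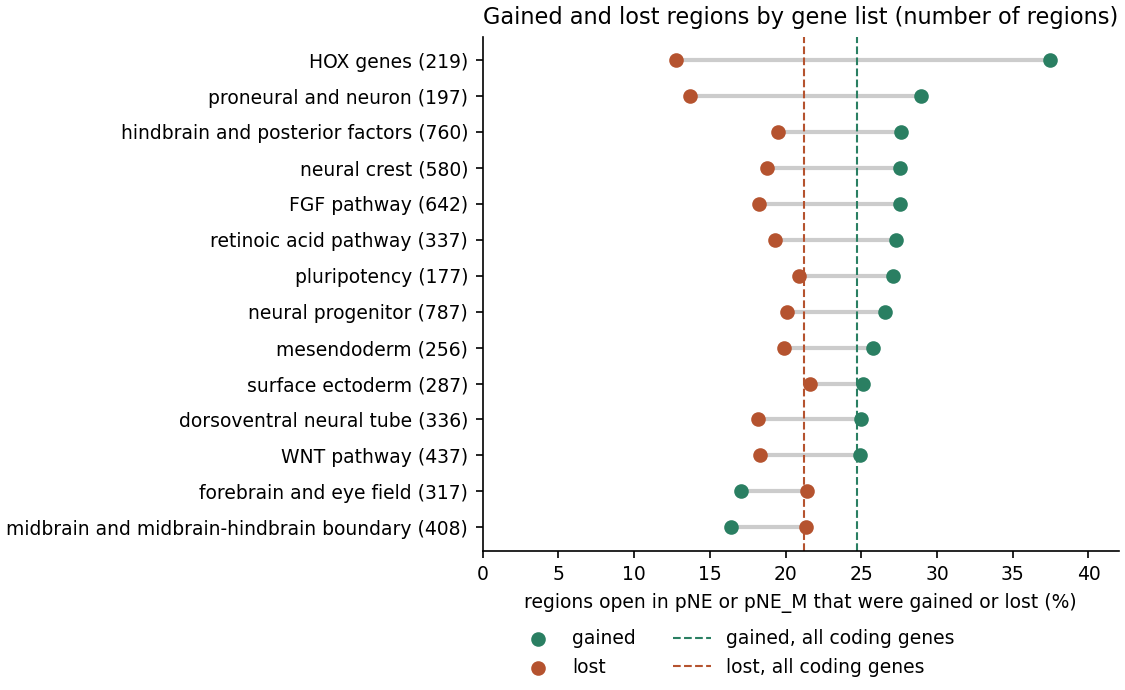
Share of regions gained (green) and lost (brown), in percent, of the regions open in pNE or pNE_M at the genes of each list, with the number of regions in brackets and dashed lines for all coding genes (24.7% gained, 21.2% lost). HOX genes stand apart on the gained side at 37.4%, and the midbrain and forebrain lists are the ones with more lost than gained regions.

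At the 17 midbrain and boundary genes 67 regions were gained, 87 lost and 254 kept. More regions were lost than gained at 10 of the 17 genes (58.8%, against 33.2% of all genes), more were gained at 4, and 3 had equal numbers. All 19 listed promoters of these genes had the same state in both lists, 15 open and 4 closed. Most promoters of any gene did so: 71.7% of all listed promoters were open in both lists and 24.1% in neither. EN1, a homeodomain factor of the midbrain and anterior hindbrain, had 46 open regions in pNE and 40 in pNE_M, with 13 gained and 19 lost. Across the day 4 lists EN1 had 49 in aNE_M, 39 in pNE_T and 63 in pNE_H. EN2, its paralogue, had 13 and 9, with 1 gained and 5 lost. PAX5, a paired-box factor of the boundary, had 45 and 38, with 8 gained and 15 lost, and PAX2, which precedes it there, had 36 and 33, with 6 gained and 9 lost.

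The organiser's signals had few regions. FGF8 had 7 open regions in pNE and 9 in pNE_M, with 3 gained and 1 lost. WNT1 had 5 and 4, with 1 lost, and FGF17 kept its 1 region. FGF18, another FGF of the boundary, had 22 and 28, with 10 gained and 4 lost, the largest excess in the list. CNPY1, an FGF signalling regulator of the boundary, had 18 and 13, with 1 gained and 6 lost. OTX2 had 25 and 26, with 5 gained and 4 lost, and GBX2, its counterpart in the hindbrain, had 6 in each, with 1 gained and 1 lost. LMX1A, a factor of the roof plate and of dopaminergic progenitors, had 48 and 46, with 9 gained and 11 lost, and LMX1B 31 and 30, with 4 and 5. DMBX1 gained 2 and lost 3, TAL2 lost 1, PAX8 gained 2 and lost 2, and BARHL1 gained 2 and lost 0.

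**Figure D4:**
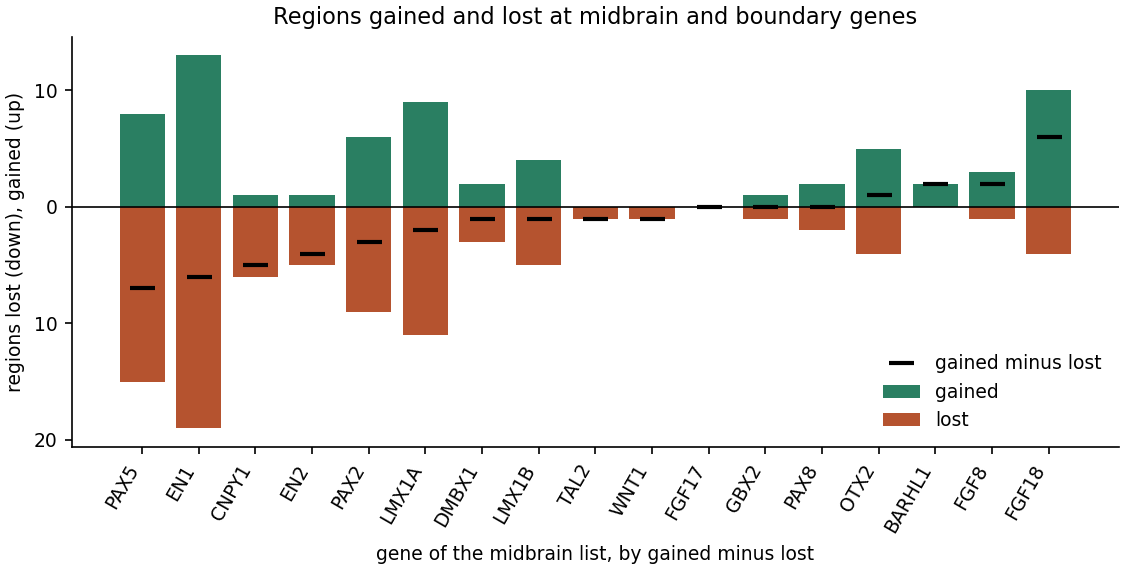
Number of regions gained (upward) and lost (downward) at each of the 17 midbrain and boundary genes, ordered by gained minus lost (black bars). PAX5 and EN1 stand at the lost end with 15 and 19 lost regions, and FGF18 at the gained end with 10 gained.

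The widest changed peaks at these genes were mostly open in other lists too. A gained PAX2 peak of 816 bp (chr10:100814830-100815645, hg38) lay inside the gene and was also open in aNE_H and pNE_H, and the widest lost PAX2 peak, of 600 bp (chr10:100802398-100802997), also lay inside it and was open in aNE_M, aNE_H and pNE_H. A gained LMX1A peak of 812 bp (chr1:165092317-165093128) lay 109 kb from the gene and was also open in DE, pNE_T and pNE_H. A gained FGF18 peak of 748 bp (chr5:171508826-171509573), 51.6 kb from the gene, was otherwise open in pNE_H. The widest gained peak at OTX2, of 391 bp (chr14:56952891-56953281), lay 143 kb from the gene and was open in pNE_M alone. At PAX5 the widest lost peak, of 767 bp (chr9:37040430-37041196), lay 6.54 kb outside the gene and was open in hPSC, DE, aNE and the 3 day 4 lists from aNE, and in neither pNE_T nor pNE_H.

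HOX genes had 38 members with a region among 39, and 22 had more gained than lost regions (57.9%), 4 more lost and 12 equal numbers. The list gained 82, lost 28 and kept 109 regions. HOXC4 had 13 open regions in pNE and 20 in pNE_M, with 11 gained and 4 lost. HOXC6 had 2 and 7, HOXD1 1 and 6, and HOXB1 9 and 14. HOXA7 had none in pNE and 4 in pNE_M. More lost than gained regions were seen at HOXC10 (2 lost), HOXA11 and HOXB8 (1 lost each), and HOXC11 (2 lost, 1 gained). At kept HOX regions the peak was wider in pNE_M in 54.1% of cases, against 40.2% over all genes.

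Taken as whole clusters, which needs no assignment to single genes, the HOX loci gained 64, lost 21 and kept 85 regions. HOXA (chr7:27092993-27200091) gained 9 and lost 2, HOXB (chr17:48528526-48728750) gained 22 and lost 8, HOXC (chr12:53938831-54056030) gained 17 and lost 7, and HOXD (chr2:176087487-176190907) gained 16 and lost 4. The 4 clusters together were open at 106 regions in pNE and 149 in pNE_M, against 128 in pNE_T, 164 in pNE_H, 109 in aNE_M and 101 in aNE_H. They were open at 141 regions in hPSC, 131 in DE, 109 in aNE and 111 in aNE_T, so undifferentiated cells were near pNE_M in this count. Of the 64 gained regions 36 were open in pNE_H, 19 in pNE_T, 11 in aNE_M and 7 in aNE_H, and 19 were open in pNE_M alone. Over all gained regions the shares were 57.7%, 30.1%, 21.0% and 19.2%, and 28.1% were open in pNE_M alone. The HOX counts for pNE_H, pNE_T and pNE_M alone were near these general shares. Of the 64 gained HOX regions 14 were open in hPSC and 13 in DE, beside 13.5% and 17.2% of all gained regions.

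The widest gained HOX peak, of 1208 bp (chr7:27148309-27149516), lay in HOXA3 and the antisense gene HOXA-AS3 and was otherwise open in pNE_H. A peak of 1144 bp in HOXC4 (chr12:54043428-54044571) was likewise open in pNE_H, and one of 943 bp in HOXB7 (chr17:48609808-48610750) in hPSC, pNE_T and pNE_H. A peak of 772 bp in HOXB3 and HOXBLINC (chr17:48580245-48581016) was open in pNE_M alone. Between 54025660 and 54029130 on chromosome 12, in the overlapping transcripts of HOXC4, HOXC5 and HOXC6, 4 gained peaks of 142 to 219 bp followed one another, and each was open in pNE_M alone. The widest lost HOX peak, of 712 bp in HOXB2 (chr17:48543095-48543806), was open in every list but pNE_M and pNE_H, and the next, of 693 bp in HOXB8 (chr17:48612812-48613504), in every list but pNE_M.

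**Figure D5:**
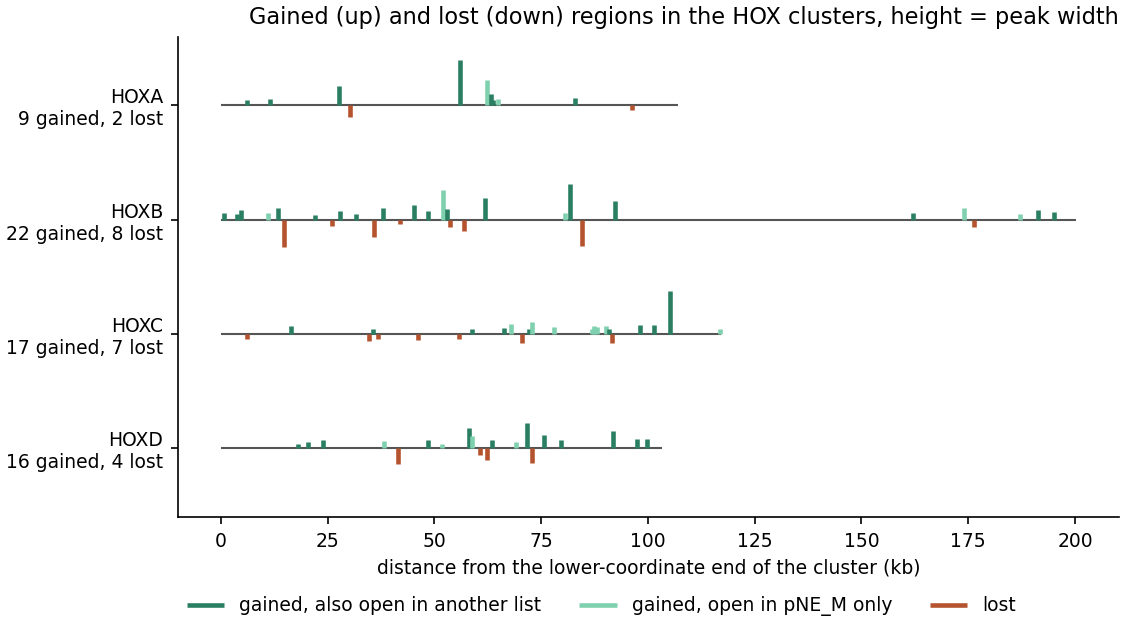
Positions of gained (up) and lost (down) regions along the 4 HOX clusters, as distance in kb from the lower-coordinate end, with bar height in proportion to peak width and pale green for regions open in pNE_M alone. Kept regions are not drawn. Gained regions outnumber lost ones in each cluster, and 19 of the 64 are pale. Among all gained regions 28.1% were open in pNE_M alone.

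Beside the other moves of medium, as deposited, the HOX list gained 29.0% of its regions from pNE to pNE_T, 39.1% from pNE to pNE_H and 13.4% from aNE to aNE_M, against 37.4% from pNE to pNE_M. With the widest 162041 peaks of each list the shares were 27.4%, 26.5% and 7.79%, against 36.3%. The midbrain list gained 18.4%, 29.7% and 30.0% in those comparisons as deposited and 17.8%, 15.8% and 20.7% at equal size, against 16.4% and 16.3% from pNE to pNE_M. Over all coding genes the shares were 26.0%, 41.1% and 32.9% as deposited, against 24.7% from pNE to pNE_M. At equal size they were 24.6%, 24.6% and 22.1%, against 22.8%. The midbrain list was below the share of all genes in every comparison. The HOX list was below it from aNE to aNE_M, and as deposited also from pNE to pNE_H. The comparisons from pNE share the pNE list, and no difference between them was tested.

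The hindbrain and posterior factors other than HOX gained 210 and lost 148 of 760 regions, and 10 of 12 genes (83.3%, against 33.2% of all genes) had more gained. At equal size by width 8 of 12 had more gained (191 gained, 153 lost), and within 50 kb of the genes 6 had more gained and 6 more lost (83 and 71). NR2F2 (COUP-TFII) had 123 open regions in pNE and 136 in pNE_M, with 48 gained and 35 lost. NR2F1 (COUP-TFI) had 88 and 104, with 34 gained and 18 lost. Most of these regions lay far from the genes: within 50 kb of the gene NR2F1 gained 1 and lost 2, and NR2F2 gained 1 and lost 4. The HOX cofactors MEIS1 and MEIS2 gained 29 and 21 and lost 18 and 10. PBX3, also a HOX cofactor, lost 17 and gained 12, and CDX1 gained 1 and lost 1. CDX2, an activator of posterior HOX genes, gained 4 and lost 0.

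Within the retinoic acid pathway 92 regions were gained (27.3%, against 24.7% of all genes) and 65 lost (19.3%, against 21.2%) of 337. More were gained at 7 of 16 genes (43.75%) and more lost at 5 (31.25%), against 33.2% each of all genes. RARB, a receptor gene that retinoic acid itself induces, had 68 open regions in pNE and 85 in pNE_M, with 36 gained and 19 lost. It also had 85 in pNE_T, and 147 in pNE_H, the longest list. CYP26A1 gained 9 regions, lost 4 and kept 9. RXRG, a partner receptor, gained 2 and lost 4, and CYP26C1 lost 1.

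The WNT pathway gained 109 and lost 80 of 437 regions, with more gained at 9 of 19 genes (47.4%, against 33.2% of all genes) and more lost at 6. At equal size by width 8 had more gained and 8 more lost, and over all 10 lists at equal size 85 regions were gained and 83 lost. AXIN2, a target and inhibitor of WNT signalling, had 25 open regions in pNE and 39 in pNE_M, with 16 gained and 2 lost. It had 22 in aNE_T, 33 in aNE_M and aNE_H, 24 in pNE_T and 45 in pNE_H, so the telencephalon lists had fewer than the midbrain and hindbrain lists of either origin. WNT5A, a ligand, gained 11 and lost 3. SP5, a direct WNT target, gained 4 and lost 0. The transcription factor TCF7L2 gained 12 and lost 18, and the cell cycle gene CCND1 gained 4 and lost 8.

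For the FGF pathway the count was 177 gained and 117 lost of 642, with more gained at 10 of 13 genes (76.9%, against 33.2% of all genes). The excess of 60 was 30 at equal size by width, 25 over all 10 lists at equal size and 5 within 50 kb of the genes. SPRY2, a feedback inhibitor of FGF receptors, gained 46 and lost 23, and ETV1, a transcription factor induced by FGF, gained 17 and lost 6. SPRY4 gained 2 and lost 8, and SPRED1 gained 6 and lost 12.

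Neuronal genes lost a smaller share of regions than all genes as deposited. The proneural and neuron list gained 57 (28.9%, against 24.7% of all genes) and lost 27 (13.7%, against 21.2%) of 197 regions. More were gained at 6 of 13 genes (46.2%, against 33.2% of all genes) and more lost at 1. Gained minus lost was 30, of which 14 lay at ELAVL4. It was 18 at equal size by width, 23 over all 10 lists at equal size and 3 at equal size at random. ELAVL4, an RNA-binding protein of early neurons, had 13 open regions in pNE and 27 in pNE_M, with 15 gained and 1 lost. Both gained promoters of this list were ELAVL4's. STMN2, a microtubule regulator of growing axons, gained 19 and lost 10. The proneural factors NEUROG1 and NEUROG2 gained 2 and lost 0 each, and the Notch ligand DLL1 gained 8 and lost 10. At equal size over all 10 lists this group lost 13.1% of its regions from pNE to pNE_M, 18.5% to pNE_T and 21.8% to pNE_H.

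Neural progenitor genes gained 209 and lost 158 regions as deposited, 198 and 173 at equal size by width, and 158 and 158 at equal size over all 10 lists. POU3F2, a POU factor of neural progenitors, gained 30 and lost 12, and the adhesion molecule NCAM1 gained 29 and lost 13. SOX1 gained 11 and lost 17, and POU3F1 gained 14 and lost 19. ZIC1, a dorsal zinc-finger factor, gained 20 and lost 4. Forebrain genes gained 54 and lost 68 of 317 regions. More were lost at 7 of 15 genes (46.7%, against 33.2% of all genes). LHX5, a LIM homeodomain factor of the forebrain, had 37 open regions in pNE and 25 in pNE_M, with 4 gained and 16 lost. SIX3, which represses WNT in the anterior neural plate, gained 2 and lost 6. EMX2 gained 13 and lost 8, and FEZF1 5 and 1.

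The remaining lists hold markers of pluripotency and of cell types that neural cultures can contain. Their gained shares as deposited ran from 25.0% (dorsoventral) to 27.6% (neural crest), against 24.7% of all genes. Their lost shares ran from 18.2% (dorsoventral) to 21.6% (surface ectoderm), against 21.2% of all genes. Neural crest genes gained 160 and lost 109 regions; SOX9 gained 31 and lost 11 and TFAP2A 30 and 15, while ETS1 gained 19 and lost 30 and PAX7 5 and 14. Dorsoventral genes gained 84 and lost 61, with BMP4 at 12 and 3, NKX6-1 at 16 and 7, SHH at 5 and 13 and GDF7 at 1 and 3. Surface ectoderm genes gained 72 and lost 62, mesendoderm genes 66 and 51, and pluripotency genes 48 and 37. TP63 gained 18 and lost 10, GATA3 gained 19 and lost 28, FOXF1 gained 21 and lost 12, and GSC gained 6 and lost 10. ZFP42 gained 17 and lost 8, SALL4 gained 7 and lost 2, and PRDM14 gained 1 and lost 5. Peaks near such genes do not give the share of cells of a type, and its part in these counts was not tested.

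The widest gained peaks lay outside protein-coding genes. The first, of 1948 bp (chr6:137602513-137604460), lay between genes, 109 kb from OLIG3, a bHLH factor of dorsal progenitors in the hindbrain and spinal cord, and was open in pNE_T, pNE_M and pNE_H alone. A peak of 1921 bp (chr8:37598340-37600260) lay in the non-coding gene LINC01605, 96.5 kb from ZNF703, and was open in all day 4 lists but aNE_T. One of 1661 bp (chr5:91194530-91196190), 30.9 kb from ADGRV1, lay in a non-coding gene and was otherwise open in DE alone, and one of 1449 bp (chr7:33698289-33699737), 63.2 kb from BBS9, in pNE_H alone. The widest lost peaks, in contrast, were open nearly everywhere else. Those of 1503 bp (chr16:65772403-65773905, between genes), 1418 bp in ADCY2 (chr5:7473667-7475084) and 1412 bp in GLIS1 (chr1:53551586-53552997) were open in all lists but pNE_M. A peak of 1338 bp in ARID1B (chr6:156839576-156840913) was missing in hPSC and pNE_M, and one of 1311 bp in FOXN3 (chr14:89440760-89442070) in aNE_H and pNE_M.

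Promoters changed less than other regions. Of the 21040 listed windows, from 250 bases before to 50 after a start site, 351 (1.67%) gained a peak, 532 (2.53%) lost one, 15089 (71.7%) were open in both lists and 5068 (24.1%) in neither. Gained promoters had a median GC content of 50.0% and lost ones 56.0%, between those of promoters open in neither (48.3%) and in both (66.0%). Of the gained promoters 72.6% were open in pNE_H, 50.4% in pNE_T and 33.3% in aNE_M. For lost promoters the shares were 73.7%, 44.0% and 67.9%, and for all listed promoters 76.8%, 73.7% and 74.6%. The word TAATTA, read by many homeodomain proteins, was in 9.40% of gained, 5.26% of lost, 1.90% of kept and 7.48% of closed windows, and in 3.45% of all; it has no G or C, and the closed windows had the lowest GC content.

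Listed genes with a gained promoter were ELAVL4, GATA3, HOXA7, HOXC4, HOXD4, PAX6, TFAP2A and TP63. Those with a lost one were CRIPTO, CYP26A1, GATA2, HOXA3, KRT8, NANOG, NKX2-1 and PAX6. CRIPTO, a NODAL co-receptor of pluripotent cells, was closed at its start in pNE_T and pNE_M alone. PAX6, a paired-box factor of forebrain and spinal cord progenitors, gained 1 start and lost 2 others. The gained TP63 promoter, like that of HOXC4, was open in pNE_M alone.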

How the data were processed

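The deposited files were 10 lists of peak positions, 1 per group of 3 libraries, with 3 columns (sequence name, start, end) and no header. The submitters' processing notes name hg38, FastQC, Bowtie2, MACS2, bedtools, featureCounts, edgeR and deepTools without versions. Their settings, and how the authors combined replicates into a list, are not given in the sources used here. A difference in threshold or depth between lists would move every count.

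Peaks were merged and regions assigned as described above. Gene positions came from a RefSeq table of GRCh38.p14 and promoter windows from a RefSeq table that does not hold every gene. Of 217 genes in 14 lists 216 were matched, CRIPTO by an older symbol. A few genes of the lists are counted but not reported by name here. Gene lists were described by counts beside all coding genes, and no test was run. The genes named are the 10 with most gained, most lost, largest and smallest gained minus lost, the 5 with the largest and smallest share gained, all midbrain genes, and in each other list the 2 members at each end. Further members of a list (HOXC6, HOXD1, HOXB1, HOXA7, HOXB8, HOXC11, MEIS1, MEIS2, CDX2, SP5, NEUROG1, NEUROG2 and ZIC1), the printed promoters and the HOX peaks were chosen after their values were seen. The regions and lists were chosen with earlier results of these data known. The code was tested on simulated lists and recovered their gained, lost and kept regions. Computations ran in Python 3.11.15 (pandas 2.3.3, numpy 2.4.6, scipy 1.17.1), and plots were drawn with matplotlib 3.10.9.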

Additional observations from a re-analysis of the deposited data

Results flagged for a closer look

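Chromosome X was outside the comparison. There 2267 regions were gained, 1718 lost and 4766 kept, a gained share of 25.9% (Wilson 95% interval 25.0 to 26.8, for the sampling of regions only), beside 24.7% on chromosomes 1 to 22.

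Gained minus lost in the midbrain medium had opposite signs for cells from pNE and from aNE in 3 gene lists. At midbrain genes it was -20 from pNE to pNE_M and 75 from aNE to aNE_M. At forebrain genes it was -14 and 75, and at HOX genes 54 and -3. Over all coding genes it was 8695 and 46560. With the widest 162041 peaks of each list the values were -7 and 9 at midbrain, -26 and 23 at forebrain and 44 and -22 at HOX genes. At that size the signs were also opposite at retinoic acid genes (10 and -8), surface ectoderm genes (5 and -30) and all coding genes (-432 and 2180), so opposite signs were not confined to the 3 lists. With 1 list per group these differences were not tested, and the aNE list is the shortest of the 10.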

How the results depend on the processing

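No paired analysis was possible because each group has 1 peak list with no value per replicate, and for the same reason no replicate could be left out. The index was 0.399 with 162041 peaks drawn at random from each list (87289 regions kept), 0.543 with the widest 50% of peaks (31477 gained, 27038 lost, 69636 kept), 0.371 where peaks had to cover 50% of a region (73292 kept), 0.523 with the 2 lists merged alone, 0.555 with 500 bp windows and 0.507 more than 1 kb from gene ends. When counting was limited to each gene and the 50 kb on both sides, gained minus lost changed sign at the pluripotency (-9), neural progenitor (-2) and dorsoventral (-10) lists, and at ADGRL2 (-4), SORCS1 (-5), NR2F1 (-1), NR2F2 (-3), HOXC10 (8), HOXA11 (5), ZFP42 (-2), POU3F1 (2), DLL1 (1), BMP4 (-3), GATA3 (1), TFAP2C (2) and GSC (2). At equal size by width it did so at CTNNA2 (-5) and SORCS1 (-5). Of 3 settings chosen after seeing the data, equal size over all 10 lists turned NTM (8), EN1 (2), LMX1A (2) and DLL1 (1). Equal size at random turned CTNNA2 (-1), DMBX1 (1), FGF18 (-2) and NKX6-1 (-1). A cover of 50% turned NTM (2), LMX1A (2), OTX2 (-1), PAX2 (1), TAL2 (1), WNT1 (1), DLL1 (6), GDF7 (1) and GRHL2 (-3). The cause was not tested. The signs of the midbrain, forebrain and HOX lists held in all 5 of these settings, whereas several single midbrain genes did not hold theirs. At equal size by width a negative value could not change sign, so that setting was no check on the midbrain and forebrain lists. Most changed regions were narrow, and with no score or depth in the files their strength is unknown.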
